A study of Mus musculus with 18 samples.

Results

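The regions described here are the RAD21 and NIPBL peaks of the T cell receptor loci in a mouse pro-B cell line. All peaks of 14 deposited lists that overlapped the Tcra/Tcrd locus (chr14:53000001-54900000, mm9) or the Tcrb locus (chr6:40840001-41530000, mm9) were taken, and peaks that overlapped across lists were merged. This gave 531 regions, 414 at Tcra/Tcrd and 117 at Tcrb, of 346850 merged regions in the genome. No measured value beyond the presence of a peak was used to choose them, and their occupancy, width and sequence are described below.

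The cells were a v-Abl transformed pro-B cell line, and every group carried the same alleles: JH-del, RAG2 deficient, an Emu-Bcl2 transgene (Bcl2 driven by the immunoglobulin heavy chain intronic enhancer) and dCas9, the nuclease-dead form of Cas9 that a guide RNA directs to a DNA site. The RAD21 dCas9 control (n = 2) and NIPBL dCas9 control (n = 2) groups had nothing further. The RAD21 dCas9 block (n = 2) and NIPBL dCas9 block (n = 2) groups also expressed the guide RNA Sg1-sgRNA. The RAD21 Ig2b wt group (n = 3) had the same genotype label as the dCas9 controls, and the RAD21 Ig2b del group (n = 3) was Ig2b-del/del in addition. All cells had been kept in STI-571, an Abl kinase inhibitor, at 3 uM for 4 days. The target of the guide, the ends of the Ig2b deletion and whether a group is 1 clone are not given in the sources used here. Nothing in the labels says that replicates were separate cultures, so p-values measure only the spread between these libraries, which may be technical.

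RAD21 is a subunit of cohesin, the ring complex that extrudes chromatin loops, and NIPBL is the factor that loads cohesin and drives extrusion. Cohesin accumulates where CTCF, a zinc finger protein bound to an oriented motif, halts it, and the direction of the motif sets which way a loop is anchored. Tcra/Tcrd and Tcrb hold the V, D, J and constant gene segments of the T cell receptor chains, which are joined by RAG recombinase in developing T cells and not in B lineage cells. In T lineage cells, an enhancer between the alpha constant gene Trac and the housekeeping gene Dad1 and an enhancer between the beta constant gene Trbc2 and Trbv31 drive these loci.

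The sequences below show matches to the CTCF core consensus within regions that had a RAD21 peak in all 10 RAD21 lists. Of such regions, 26.7% at Tcra/Tcrd and 18.8% at Tcrb held an exact match, beside 26.7% in the genome. The sequences are stretches of 101 bases of the mm9 genome, 5′ to 3′, with the core match in capitals. The first and second come from copies of a V gene upstream site in the duplicated Trav blocks. The next lies between the distal and proximal V delta genes, before Trdv4. The fourth lies in an intron of Dad1, and the fifth after Trbv14. The last lies by Trbv31, reads on the minus strand, and departs from the consensus at 1 position.
chr14:53661836-53661936, plus strand: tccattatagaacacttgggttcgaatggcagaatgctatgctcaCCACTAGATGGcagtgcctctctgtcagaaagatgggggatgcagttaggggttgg
chr14:53965370-53965470, plus strand: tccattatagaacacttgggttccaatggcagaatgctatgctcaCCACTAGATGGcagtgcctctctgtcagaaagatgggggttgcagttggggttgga
chr14:54679594-54679694, plus strand: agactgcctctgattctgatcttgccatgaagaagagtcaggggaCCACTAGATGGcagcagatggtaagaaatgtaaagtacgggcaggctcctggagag
chr14:54858869-54858969, plus strand: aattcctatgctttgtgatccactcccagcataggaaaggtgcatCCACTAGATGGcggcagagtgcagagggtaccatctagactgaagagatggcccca
chr6:41087127-41087227, plus strand: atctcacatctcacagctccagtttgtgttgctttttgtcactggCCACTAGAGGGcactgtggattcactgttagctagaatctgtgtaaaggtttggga
chr6:41506529-41506629, minus strand: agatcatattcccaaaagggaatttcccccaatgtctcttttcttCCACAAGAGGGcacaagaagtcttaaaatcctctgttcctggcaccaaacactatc
The first and second stretches had the same base at 95 of 101 positions without gaps, while the first stretch and the one before Trdv4 had the same base at 37.

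RAD21 covered the T cell receptor loci more densely than the genome in every library, and NIPBL did not. Over the 10 RAD21 lists, peaks covered 1.14% to 2.80% of Tcra/Tcrd, 0.895% to 2.44% of Tcrb and 0.438% to 1.30% of the genome. The share at Tcra/Tcrd was 2.15 to 3.17 times that of the genome (median 2.51), and the share at Tcrb was 1.59 to 2.50 times (median 2.08). Both loci lay above the genome in 10 of 10 RAD21 libraries. The log2 ratio to the genome, after 0.1 percent was added to each share, was 1.22 ± 0.155 (SD, n = 10) at Tcra/Tcrd and 0.95 ± 0.178 (SD, n = 10) at Tcrb, with p = 0.00195 each by an exact two-sided sign-flip permutation test, the smallest this number of libraries can give. Adjusted over the 13 tests on locus coverage in this section by the Benjamini-Hochberg method, these exact p-values became 0.00846. Over the whole windows, Tcra/Tcrd was covered more than Tcrb in 10 of 10 RAD21 libraries, by 0.0134 to 0.688 percentage points (mean 0.322 ± 0.190 SD, n = 10, exact sign-flip p = 0.00195, adjusted p = 0.00846). The Tcrb window includes 246210 bp of 3′ trypsinogen genes, where the median RAD21 share was 0%. In the V arrays the medians were 2.48% (main Trbv cluster), 2.33% (duplicated Trav d and n blocks), 2.10% (proximal Trav) and 0.685% (5′ Trav with olfactory receptor genes). The part of the make-up of the windows in this difference was not tested. These sign-flip p-values measure how steady the differences were over libraries that share many sites. How the loci stand among other stretches of the genome was not tested.

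NIPBL peaks covered 0.597%, 0.598%, 0.628% and 0.991% of Tcra/Tcrd in control 1, control 2, block 1 and block 2, where they covered 0.853%, 0.820%, 0.770% and 1.13% of the genome. At Tcrb the shares were 0.552%, 0.664%, 0.617% and 0.689%. All 4 NIPBL libraries thus covered either locus less than the genome, at 0.700 to 0.878 times for Tcra/Tcrd and 0.610 to 0.810 times for Tcrb, which 4 libraries cannot bring below p = 0.125 in an exact sign-flip test (p = 0.125 for each locus). By number of peaks per Mb in place of covered bases, the mean log2 ratio of NIPBL at Tcra/Tcrd to the genome turned from -0.32 to 0.18.

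Among the dCas9 libraries, in which both proteins were mapped, the log2 ratio to the genome at Tcra/Tcrd was 1.26 ± 0.243 (SD, n = 4) for RAD21 and -0.32 ± 0.128 (SD, n = 4) for NIPBL, a difference of 2.99-fold. At Tcrb the values were 0.95 ± 0.264 (SD, n = 4) and -0.43 ± 0.188 (SD, n = 4), a difference of 2.61-fold. The 4 RAD21 values lay above the 4 NIPBL values at both loci, with p = 0.0286 in an exact two-sided permutation test, the smallest that 4 against 4 allows, and 0.0743 when this exact p was adjusted over the 13 tests. RAD21 and NIPBL were mapped with different antibodies and their lists differ in length, and the part of either in this difference was not tested.

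**Figure D1:**
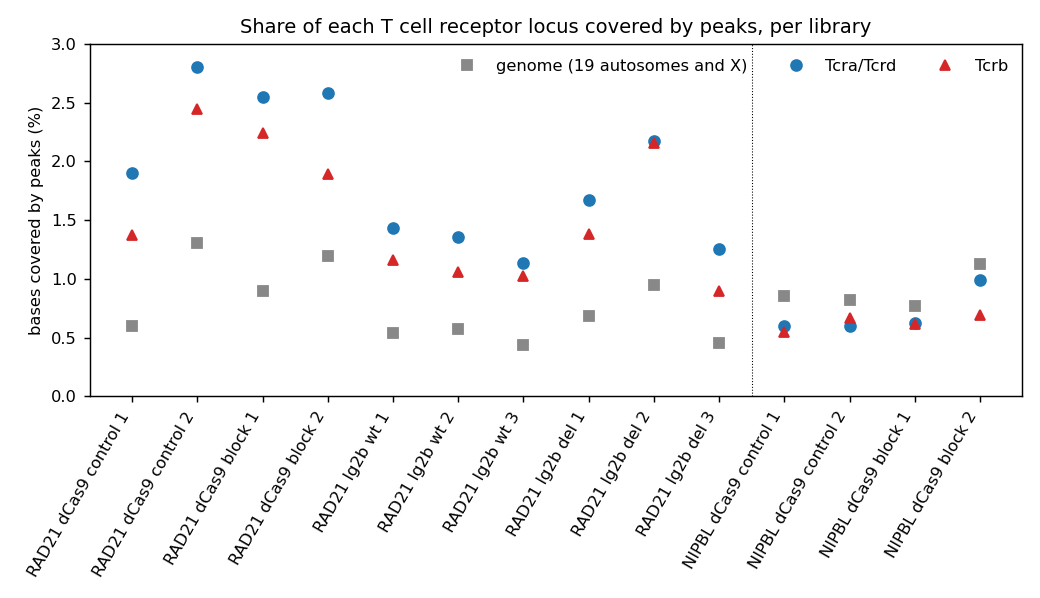
Share of bases covered by peaks (y axis, percent) in each of the 14 libraries (x axis) for the genome (squares), Tcra/Tcrd (circles) and Tcrb (triangles), 1 point per library and no error bars. In the 10 RAD21 libraries both loci lie above the genome, and in the 4 NIPBL libraries both lie below it.

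Most regions were seen in few lists, and a smaller set was seen in all of them. RAD21 had a peak in all 10 lists in 75 Tcra/Tcrd regions and 16 Tcrb regions, called constant RAD21 regions below. They were 28.7% of the 261 Tcra/Tcrd regions and 22.9% of the 70 Tcrb regions with any RAD21 peak, where the share among all such regions of the genome was 17%. Constant RAD21 regions stood at 39.5 per Mb in Tcra/Tcrd and 23.2 per Mb in Tcrb, against 9.69 per Mb in the genome. At the other end, 98 Tcra/Tcrd and 31 Tcrb regions had RAD21 in 1 list, and 153 and 47 had none. RAD21 was in 9 of 10 lists in 10 regions at Tcra/Tcrd and 3 at Tcrb. Constant regions were 225 to 2016 bp wide at Tcra/Tcrd (median 492) and 446 to 2540 bp at Tcrb (median 992). Regions with RAD21 in 1 list had a median width of 124 and 108 bp. Merging across lists makes shared regions wider, so the widths describe the merged regions and not single peaks. Where a library counted only if its peaks covered at least 50% of the merged region, 14 and 1 regions had RAD21 in all lists, and with peaks at a −log10 q of at least 3 alone, 48 Tcra/Tcrd regions did.

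Many constant RAD21 regions stood directly before V genes. At Tcra/Tcrd, a constant RAD21 region reached into the 500 bp before the start of 31 of 108 annotated V genes (28.7%), and at Tcrb into those of 5 of 23 (21.7%). Among all protein-coding genes, 9.61% had one there. Those 500 bp stretches made up 2.84% of the Tcra/Tcrd locus and held 25.9% of the bases of its constant regions. Of the 75 constant regions there, 31 (41.3%) touched them, a share of regions that is not on the scale of a share of bases. At Tcrb they made up 1.67% of the locus, held 11.9% of the bases of its constant regions and were touched by 5 of 16 constant regions (31.3%). No constant region reached into the 500 bp before any of the 64 D, J and C genes of Tcra/Tcrd or the 18 of Tcrb. The same count was 0 for the 13 other protein-coding genes in the Tcra/Tcrd window, such as olfactory receptor genes and Dad1, and 0 for the 14 in the Tcrb window, mostly trypsinogen genes. For NIPBL the order was the reverse, as a region with NIPBL in all 4 lists stood before 3 of 108 (2.78%) and 0 of 23 V genes, but before 42% of protein-coding genes.

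**Figure D2:**
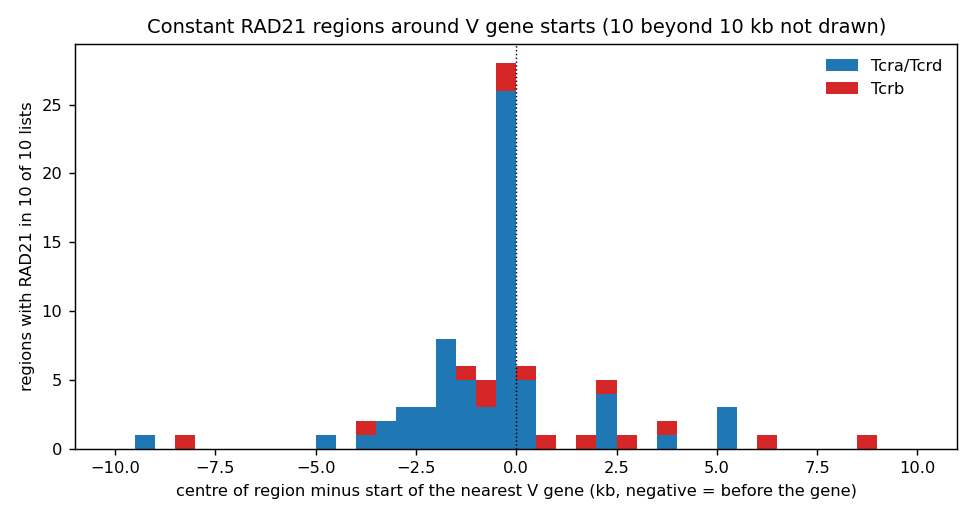
Number of constant RAD21 regions (y axis) by the distance from the start of the nearest V gene to the region's centre (x axis, kb, bins of 0.5 kb, negative before the gene), with Tcra/Tcrd and Tcrb stacked. Of the 91 regions 81 are drawn, and the tallest bar, just before the start, holds 26 Tcra/Tcrd and 2 Tcrb regions.

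The centre of 26 Tcra/Tcrd constant regions lay within the 500 bp before the start of the nearest V gene, and 57 of 75 lay within 3000 bp on either side. At Tcrb 2 of 16 lay in that 500 bp stretch and 10 within 3000 bp, and this difference between the loci was not tested. Neighbouring constant regions were a median of 15.9 kb apart at Tcra/Tcrd and 18.8 kb at Tcrb. The longest stretches without any were 254 kb at Tcra/Tcrd, from the end of the Trav genes over V delta genes to the first region before Trdv4, and 258 kb of trypsinogen genes between the last region of the main Trbv cluster and the region before Trbd1.

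**Figure D3:**
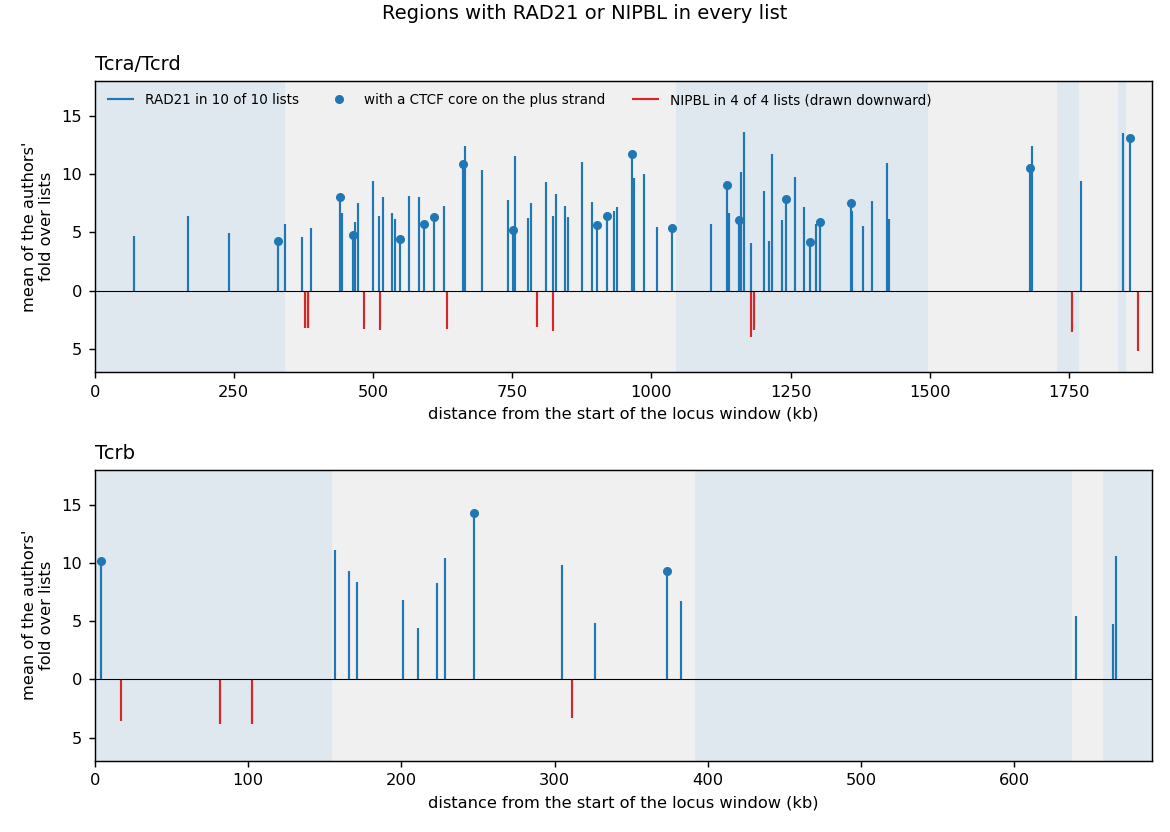
Constant RAD21 regions (upward lines, dots where the region holds a CTCF core on the plus strand) and regions with NIPBL in 4 of 4 lists (downward lines) by distance from the start of each locus window (x axis, kb), with line length giving the mean of the authors' fold over lists and shaded bands marking the segments. RAD21 lines crowd over the Trav and Trbv genes and recur singly at the D, J and constant gene end, while 12 NIPBL lines at Tcra/Tcrd and 4 at Tcrb stand mostly apart from them.

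Strong RAD21 sites stood within the V arrays. Each fold below is the authors' enrichment from MACS2 for the highest peak in the region, on the scale of its own list, so folds printed side by side show no difference between libraries or proteins. The region at chr14:54166286-54167647, intergenic and 1090 bp from the V alpha gene Gm16980, had a fold of 10.2 to 16.7 (median 13.5) in the 10 RAD21 lists, where it stood above 96.3% to 99.8% of the peaks of each list, and it had no NIPBL peak. The region at chr14:53664662-53665407, 1555 bp from Trav16d-dv11, had folds of 9.99 to 16.01 and no NIPBL peak. Both were present in all lists, and neither held an exact core. The region of the first sequence above, chr14:53661499-53662316 at the 5′ end of Gm8721, had a fold of 8.39 to 14.5 in the 10 RAD21 lists. Its copy at chr14:53965148-53965693, by Gm10906, had a fold of 8.46 to 17.7. Each of this pair had a NIPBL peak in 1 list.

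Beyond the V alpha array, 2 regions between the distal V delta genes and Trdv4 were among the 12 of the locus with the highest mean fold over the RAD21 lists. At chr14:54679211-54680443 the folds were 7.55 and 13.7 in the RAD21 dCas9 control libraries, 9.32 and 14.6 in block, 10.8, 8.67 and 8.47 in Ig2b wt, and 11.02, 10.5 and 10.6 in Ig2b del. At chr14:54684055-54685057 they were 10.3 and 17.6 in control, 10.0 and 14.7 in block, 10.9, 10.6 and 9.35 in wt, and 14.1, 14.1 and 13.0 in del. Both had a peak in every RAD21 list, and no NIPBL list had a peak in either. The region at chr14:54771711-54773227, at the start of the J alpha array and upstream of the inverted delta gene Trdv5, was chosen after its values were seen. Its folds were 6.61 to 11.9 (median 9.39) in 10 RAD21 lists, again without NIPBL. The D delta and J delta genes themselves had no constant RAD21 region.

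The stretch from Trac to Dad1 was the most densely covered segment of either locus, for both proteins. RAD21 covered 5.58% to 21.9% of its 14958 bp (median 10.0%, 10 libraries) and NIPBL 3.16% to 12.3% (median 7.15%, 4 libraries). Its main site at chr14:54846427-54848442, intergenic and 3655 bp past the end of Trac, had RAD21 folds of 12.1 and 14.1 in control, 10.5 and 15.3 in block, 13.0, 14.7 and 11.8 in wt, and 17.5, 13.4 and 13.3 in del. NIPBL had a peak there in control 1 (fold 3.57), block 1 (5.34) and block 2 (3.50), and none in control 2, whose nearest peak lay directly before it at chr14:54845997-54846353 (named after its values were seen). RAD21 was thus present in every library at this site and NIPBL in 3 of 4. Closer to the constant gene, the region nearest to Trac, intronic at chr14:54842112-54842298, had RAD21 in 1 list, and the first region past its end had NIPBL in 1 list. Downstream, the intronic Dad1 region of the fourth sequence, chr14:54858458-54859262, had RAD21 folds of 8.50 to 19.7 (median 12.3) and a NIPBL peak in block 2 alone. The start of Dad1 itself (chr14:54873121-54874072), a subunit gene of the oligosaccharyltransferase, had NIPBL in all 4 lists, with folds of 3.77 and 4.23 in control and 7.78 and 4.99 in block, and RAD21 in 8 of 10 lists, with folds of 3.12 to 4.19.

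**Figure D4:**
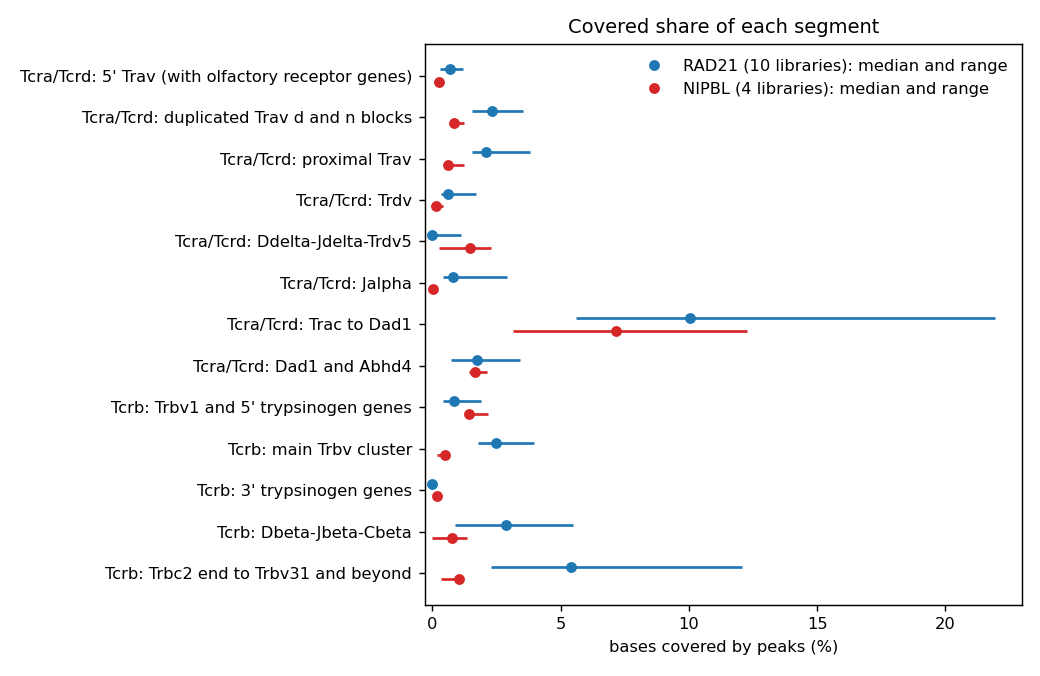
Share of bases covered by peaks (x axis, percent) in each of 13 segments of the loci (y axis), as the median (point) and the range (line) over 10 RAD21 and 4 NIPBL libraries. Trac to Dad1 has the highest medians of both proteins, and the D delta to Trdv5 segment and the trypsinogen segments are the ones where the NIPBL median lies above that of RAD21.

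At Tcrb, constant RAD21 regions stood at 5.08 per 100 kb in the main Trbv cluster, 5.00 per 100 kb in the D, J and constant gene segment and 6.29 per 100 kb from the end of Trbc2 past Trbv31, and none stood in the 3′ trypsinogen segment. RAD21 covered 1.78% to 3.97% of the main Trbv cluster (median 2.48%) and at most 0.179% of the 3′ trypsinogen segment, where the median was 0% and 6 of 10 libraries had no peak. The highest mean fold over the RAD21 lists at Tcrb was at chr6:41086925-41087647, intergenic and 1317 bp past Trbv14. It was 13.0 and 19.3 in RAD21 control, 11.1 and 21.1 in block, 12.1, 12.6 and 11.1 in wt, and 14.2, 11.9 and 16.2 in del, above 95.5% to 99.9% of the peaks in each list. Constant regions with high folds also reached into an exon of Trbv2 (chr6:40996450-40997641, fold 8.80 to 15.5) and stood before Trbv12-2 (chr6:41068111-41068767, fold 7.66 to 14.8). At the outer end, the region at chr6:40843297-40844728, between Trbv1 and the trypsin-like protease gene Prss58, had folds of 7.20 to 15.1.

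The segments around the beta constant genes are short and held 3 constant regions in all. The region at chr6:41479525-41480528, 2672 bp before the D beta gene Trbd1 and chosen after its values were seen, had RAD21 folds of 3.96 to 6.75 (median 5.28) in 10 lists and no NIPBL. Past Trbc2, the region at chr6:41503193-41505732, which is the widest of both loci at 2540 bp, had RAD21 folds of 3.23 to 5.92 and NIPBL in 3 of 4 lists (3.38 and 3.72 in control, 4.13 in block 1). RAD21 covered 368 and 2423 bp of it in control, 786 and 1787 bp in block, 636, 974 and 757 bp in wt, and 1208, 1614 and 617 bp in del. Replicate 2 of control and of block had more bases covered than replicate 1, here and over the genome. Next to it, the region of the last sequence, chr6:41505990-41507048, by the inverted gene Trbv31, had folds of 7.46 to 14.6 and no NIPBL. The regions over Trbc1 and Trbc2 themselves had no RAD21 peak and NIPBL in 1 list each, over sequence that occurs in 2 copies.

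The CTCF core stood on the plus strand in every constant region that held an exact match. The 11 bp core consensus was searched on both strands of mm9 and matched 31746 times, 15691 on the plus and 16055 on the minus strand. Of the constant RAD21 regions, 20 of 75 at Tcra/Tcrd (26.7%) and 3 of 16 at Tcrb (18.8%) held a match, where 26.7% of all constant RAD21 regions of the genome did. All 23 of these regions held it on the plus strand alone, where 48.5% of the constant RAD21 regions with a core did so in the genome. The loci themselves held 40 plus and 7 minus matches at Tcra/Tcrd and 6 plus and 2 minus at Tcrb. RAD21 had a peak in at least 1 list over 32 of the 40 and all 6 of the plus matches, and over none of the 7 and 2 minus matches. With 1 mismatch allowed, 58 of 75 and 12 of 16 regions held a core, where 77.3% did in the genome. Of these, 45 and 9 held it on the plus strand alone and 7 and 3 on the minus strand alone, against 41.4% plus and 42.8% minus in the genome. Of the V genes, 107 of 108 and 22 of 23 lie on the plus strand, the exceptions being Trdv5 and Trbv31. These counts describe letters in the regions; no CTCF occupancy was measured here.

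**Figure D5:**
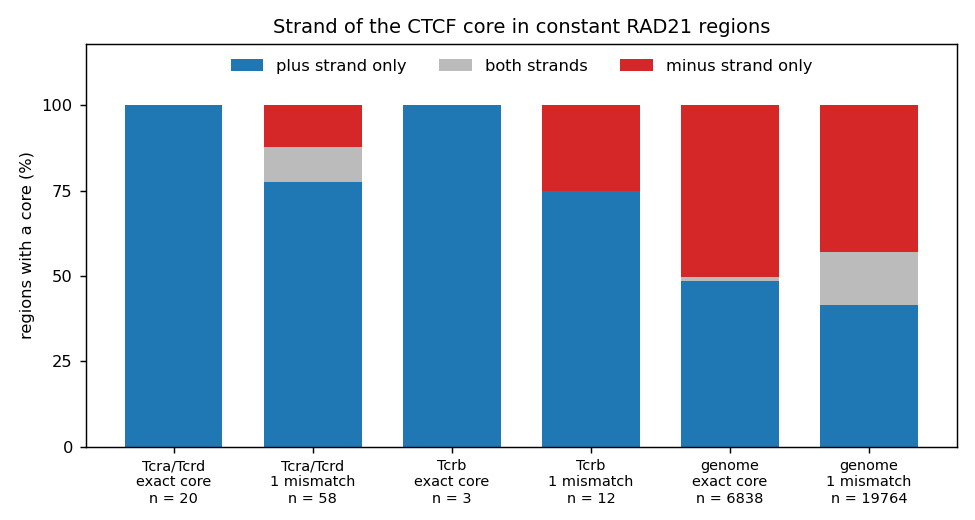
Constant RAD21 regions with a CTCF core (y axis, percent, n below each bar), by the strand of the core, for Tcra/Tcrd, Tcrb and the genome with an exact core or 1 mismatch allowed. The exact cores of both loci are all on the plus strand (20 and 3 regions), while the 6838 regions of the genome divide between the strands.

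Many V sites are copies of each other. Of the 91 constant regions, 58 shared at least 25% of their 31-base words with another region of the loci, and for 53 of them such a partner was itself constant. In the duplicated d and n blocks this held for 41 of 42 constant regions, and 16 of the 20 core-bearing Tcra/Tcrd regions lay in sequence whose median word occurred at least 2 times in the genome. Reads from such copies cannot always be assigned to 1 of them, so the counts of V gene sites are not counts of independent sites, and how reads of multiple positions were placed is not given in the sources used here. The regions before Trdv4, at J alpha, past Trac, in Dad1 and all 16 constant Tcrb regions had a median word count of 1 copy.

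NIPBL was seen repeatedly at few regions. It had a peak in all 4 lists in 12 Tcra/Tcrd and 4 Tcrb regions, 5.88% and 7.27% of the regions with any NIPBL peak, where the share in the genome was 10.1%. Without NIPBL control 2, 21 Tcra/Tcrd regions had NIPBL in every remaining list. With peaks at a −log10 q of at least 3 alone, 1 Tcra/Tcrd region and no Tcrb region had NIPBL in all lists. The regions described next thus mostly rest on peaks near the calling threshold in at least 1 list. Of the constant RAD21 regions, 17 of 75 and 4 of 16 (22.7% and 25%) had NIPBL in any list, against 42.6% in the genome, and 1 of the 91 had NIPBL in all 4, against 17.8%. That region, chr14:54178836-54180765 over the V gene Gm16591, had RAD21 folds of 3.10 to 5.72 and NIPBL folds of 3.43 and 2.78 in control and 6.04 and 3.55 in block. The fold of 2.78 is the lowest in the control 2 list. This region was also the 1 region of the 16 with NIPBL in all 4 lists that had RAD21 in all 10, where 19.4% did in the genome. Of the 16 regions, 10 had no RAD21 peak in any list (62.5% here and 38.5% in the genome), and none held an exact CTCF core, where 4.31% did in the genome. All 10 without RAD21 lay in repeated sequence, with a median word count of 24 to 2207 (median 775) and a median GC content of 58.2%, against a median of 2 copies and 43.1% GC for the constant RAD21 regions. Among them, chr14:54755249-54755969, 485 bp from the J delta gene Trdj2, had NIPBL folds of 2.74, 3.40, 3.77 and 4.43, where 2.74 is the lowest fold in the control 1 list. The part of the placement of repeated reads in these peaks was not tested. A further 4 stood over V gene exons in sequence of 3 or 4 copies, such as chr14:53822907-53823344 in Gm10897.

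With the Sg1-sgRNA expressed beside dCas9, no difference of RAD21 in the loci passed the tests. RAD21 covered 1.91% and 2.80% of Tcra/Tcrd in control and 2.55% and 2.59% in block, and 1.38% and 2.44% against 2.24% and 1.90% of Tcrb. The groups overlapped at both loci. The difference, block minus control, was 0.215 percentage points at Tcra/Tcrd and 0.161 at Tcrb (exact two-sided permutation p = 1 each; 2 against 2 cannot go below 0.333). The peak names of replicate 1 had another style than those of replicate 2, and within these name styles the difference was 0.647 and -0.216 points at Tcra/Tcrd and 0.868 and -0.546 at Tcrb, so its sign differed between them. Without control 2 the differences were 0.664 and 0.695 points, and without control 1 they were -0.233 and -0.373. Relative to the genome, whose coverage rose alongside (0.952% to 1.05%), the log2 differences were -0.07 and -0.06. Of the 10 kb windows of the genome, limma called 0% at an adjusted p under 0.05 and 0.0179% at an unadjusted p under 0.05, and it called none of the 38 tested windows in the loci at either. With so few small p-values over the genome, this fit could hardly call any window. With replicate number as a block, 557 of 16780 windows had an unadjusted limma p under 0.05, and none of them was in the loci. The locus windows had a median log2 difference of 0.07, beside 0.10 over all windows tested, 24 higher and 14 lower. With quantile normalization, which moved the median of all windows to -0.01, this split was 13 higher and 25 lower. The window with the smallest p, chr6:41000001-41010000 in the Trbv cluster, held 394 and 474 bp in control and 744 and 665 bp in block, a log2 difference of 0.37 ± 0.321 (SE, adjusted p = 1 by limma).

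Peaks gained or lost by every library of a group were few. Gained regions, with a peak in each block library and no peak in either control, were 0 of 230 at Tcra/Tcrd and 1 of 56 at Tcrb, where 1.15% were gained in the genome. Lost regions were 1 of 230 and 0 of 56, where 0.281% were lost. The gained region, chr6:41203368-41203599 in the Trbv cluster, had 94 and 56 bp covered in block, and also had RAD21 peaks in 1 wt and 1 del library. The lost region, chr14:54073811-54073980 over the V gene Gm13945, had 108 and 155 bp covered in control, also had RAD21 peaks in 1 wt and 1 del library, and held a CTCF core on the plus strand. Present in all 4 libraries were 104 of 230 and 20 of 56, against 31.3% in the genome.

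NIPBL coverage of Tcra/Tcrd was higher in both block libraries (0.628% and 0.991%) than in either control (0.597% and 0.598%), by 0.212 points on average. The groups did not overlap, and the exact permutation p of 0.333 is the smallest that 2 against 2 allows. Relative to the genome the log2 difference was 0.24. Most of the difference came from block 2, which had the longest NIPBL list (123391 peaks): without it the difference was 0.0304 points. At Tcrb the block libraries (0.617% and 0.689%) overlapped the controls (0.552% and 0.664%), with a difference of 0.0449 points (exact permutation p = 0.667). Limma called 0% of the genome's 14652 windows at an adjusted p under 0.05, and 10.2% had an unadjusted p under 0.05. Of the 9 locus windows, none was called and 1 had an unadjusted p under 0.05. This was chr14:54840001-54850000, which holds Trac and the site past it: NIPBL covered 420 and 357 bp in control and 769 and 1008 bp in block, a log2 difference of 0.64 ± 0.160 (SE, adjusted p = 0.467 by limma, 0.362 to 0.812 over the alternatives). The next window, chr14:54850001-54860000, held 454 and 253 bp against 497 and 879 bp, a log2 difference of 0.47 ± 0.237 (SE). The intronic Dad1 site in this window held only 51 of these bp, in block 2 alone. Both block libraries lay above both controls in these 2 windows, which were picked for their small p. In the window of the next smallest p, chr14:53480001-53490000, NIPBL covered 463 and 244 bp in control and 994 and 358 bp in block. There block 2 lay below control 1. RAD21 in the window of Trac covered 1272 and 1900 bp in control and 2203 and 1973 bp in block, a log2 difference of 0.33 ± 0.351 (SE, adjusted p = 1 by limma).

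Gained NIPBL regions were 9 of 204 at Tcra/Tcrd and 3 of 55 at Tcrb (4.41% and 5.45%), where 2.43% were gained in the genome, and lost ones were 3 and 0, where 1.69% were lost. Among the gains with the most covered bases was one over the V gene Gm16940, where NIPBL covered 233 and 242 bp in block and none in control, and one 14930 bp from Trbv26, where 344 and 373 bp were covered. The former sequence had a median word count of 3 copies and the latter of 128. Some gains were copies of each other, so these counts are not counts of independent regions. The gain over Trav6d-6 shared 95.0% of its 31-base words with the gain over Gm16981. The gain 14930 bp from Trbv26 shared 82.6% of its words with another gain 18792 bp from that gene. A gained region also lay over Trbv31, with 147 and 167 bp in block, and another between Trac and Dad1, with 132 and 96 bp.

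In Ig2b-del/del cells RAD21 covered 1.67%, 2.17% and 1.25% of Tcra/Tcrd, against 1.44%, 1.35% and 1.14% in Ig2b wt cells. At Tcrb it covered 1.38%, 2.16% and 0.895%, against 1.16%, 1.06% and 1.03%. The groups overlapped at both loci, with differences of 0.390 points (exact permutation p = 0.3) and 0.396 points (exact permutation p = 0.4), where 3 against 3 cannot go below 0.1. Del replicate 2, which had the longest list of the 6, was highest at both loci. The genome rose by a like factor (0.518% to 0.697%), and relative to it the log2 differences were -0.03 and -0.01. Limma called 0% of the genome's 8119 windows, 11% had an unadjusted p under 0.05, and of the 20 locus windows none passed at either. Of these 20 windows 18 were higher in del, with a median log2 difference of 0.18 beside 0.23 over all windows tested. Quantile normalization moved the median of all windows to -0.02 and this split to 6 higher and 14 lower. The locus windows of smallest p were chr14:53620001-53630000 (log2 difference 0.42 ± 0.192 SE, limma adjusted p = 0.447) and chr14:54420001-54430000 (0.33 ± 0.197 SE, limma adjusted p = 0.492). The window next in rank, by Trbc2 and Trbv31, chr6:41500001-41510000, held 1375, 1681 and 1123 bp in wt and 2441, 3052 and 1179 bp in del (log2 difference 0.47 ± 0.298 SE, limma adjusted p = 0.502).

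In del, 1 of 165 regions was gained at Tcra/Tcrd and 0 of 43 at Tcrb (0.947% in the genome), and none was lost (0.203% in the genome). The gain was beside Gm16591, with 124, 119 and 94 bp covered in del; the same region had RAD21 peaks in 3 dCas9 libraries. Present in all 6 libraries were 76 of 165 and 16 of 43, against 30.2% in the genome.

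The block effect on RAD21 was set against that on NIPBL in the same windows. None of the 17 locus windows was called by limma at an adjusted or an unadjusted p under 0.05, where 0% of the genome's 13452 windows were called and 0.357% had an unadjusted p under 0.05. This fit, too, could hardly call a window. With replicate number as a block, 487 windows had an unadjusted limma p under 0.05, again none in the loci. The median difference between the effects, NIPBL minus RAD21, was -0.03 in the loci and 0.08 over all windows tested.

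The genes of the receptor complex outside these loci were taken from a list. Of 15 genes, 5 had RAD21 within 5 kb of an annotated start in all 10 lists (29.8% of protein-coding genes did) and 5 had NIPBL there in all 4 lists (54.8% did). Cd3g, a signalling chain of the receptor, the kinase genes Lck and Fyn, and the signalling chain gene Cd247 and the costimulatory receptor gene Cd28 had RAD21 in all 10, and of these Cd3g, Lck and Fyn also had NIPBL in all 4. Cd3e, another signalling chain, had neither protein in any list, and Ptcra, the pre-T alpha chain gene, had NIPBL in 2 lists and no RAD21. Cd8a and Cd8b1 had no RAD21 and NIPBL in 1 list each. Of the 7, 5 and 4 tested windows at the starts of these genes, limma called none in the RAD21 block, NIPBL block and Ig2b comparisons, and 1 had an unadjusted p under 0.05, in the Ig2b comparison. Of the 10, 8 and 9 tested windows of the pro-B marker list, none was called either, and 0, 5 and 2 had an unadjusted p under 0.05. Over all tested windows of the genome, 0.0179%, 10.2% and 11% had an unadjusted limma p under 0.05 in these comparisons. Neither list was tested against those shares. The pro-B markers Pax5, Ebf1, Cd79a, Cd79b, Vpreb1, Igll1 and Rag1 each had RAD21 in all 10 lists and NIPBL in all 4. For T cell, myeloid and erythroid markers RAD21 was in all 10 lists at 3 of 10, 2 of 5 and 1 of 3, and NIPBL in all 4 at 7 of 10, 4 of 5 and 2 of 3. No difference between these lists was tested.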

How the data were processed

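Chromatin immunoprecipitation sequencing of RAD21 (10 libraries) and NIPBL (4 libraries) was read from 14 peak lists; 4 input libraries were not analysed here. The tools named in the submitters' processing notes are Bowtie2 2.2.8, SAMtools 1.8 and MACS2, with mm9 as the genome build. The version of MACS2 and its settings are not given in the sources used here. The authors called peaks per library and deposited for each peak a fold enrichment (a ratio over background), a −log10 p and a −log10 q, and a score that is 10 times the −log10 q and was not used. Peak names show a control for the dCas9 lists and none for the Ig2b lists. Fold values are not on 1 scale across lists; their mean over lists served only to rank and draw regions, and no group or protein was compared by fold. Read depth is unknown.

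Peaks overlapping by at least 1 bp were merged. The share of each locus covered by peaks was compared by exact two-sided permutation or sign-flip tests. Covered bases in 10 kb windows with a mean of at least 500 bp were compared genome-wide with limma 3.58.1 (R 4.3.3) on log2(bp + 500) with Benjamini-Hochberg adjustment at 0.05; a log2 difference on this scale understates changes at low coverage. This step was run on simulated windows that had the same normal spread throughout and no shared deviation of same-numbered libraries. The real lists differ from this, so the simulation does not show how limma performs on them. Distances and gene classes come from the GENCODE annotation of NCBIM37 (mm9), copy number from 31-base words of that genome. The named regions were, per locus, the 12 of highest mean fold with RAD21 in all lists, the 8 of highest mean fold with NIPBL in all lists, gained and lost regions with the most covered bases, and those nearest to constant genes and past their ends; of the windows, the 3 of smallest p. The members, lists and tests were chosen with earlier results of these data known. Alternatives covered thresholds, list length, normalization, window size, region overlap, the replicate block and leaving out each library. The value of 1 marker of the pro-B list is not reported here.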

Additional observations from a re-analysis of the deposited data

How the results depend on the processing

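Of 397 alternative values, 374 kept their direction and side of the threshold or stayed within 1.5 times, 12 moved and 11 reversed. No cause was tested. Relative to the genome, the RAD21 block difference became -0.0728 (Tcra/Tcrd) and -0.0553 (Tcrb) on the log2 scale, the NIPBL block difference at Tcrb -0.0501, and the Ig2b difference -0.0265 and -0.0132. With peaks at a −log10 q of at least 3, the RAD21 block difference at Tcrb was -0.100 points. NIPBL at Tcra/Tcrd against the genome was 0.179 by peaks per Mb. RAD21 in all lists fell to 48 Tcra/Tcrd regions at a −log10 q of at least 3, and to 14 and 1 regions where peaks had to cover 50% of the region. Those 2 settings left 1 and 2 Tcra/Tcrd and 0 and 2 Tcrb regions with NIPBL in all lists.

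With 1 library left out, the RAD21 block difference ranged from -0.233 to 0.664 points (Tcra/Tcrd) and -0.373 to 0.695 (Tcrb, -0.0120 without block 1). The NIPBL one ranged from 0.0304 to 0.394 and -0.0113 (without control 1) to 0.101, and the Ig2b one from 0.153 to 0.612 and 0.0568 to 0.688. Regions with RAD21 in all lists then numbered 75 to 82 and 16 to 18, an alternative chosen after seeing the data. Limma called 0 locus windows under every alternative run, though it called up to 43 windows elsewhere in the genome (Ig2b, −log10 q of at least 3, 15 locus windows tested). For NIPBL at that threshold it called 34 windows in the genome, but only 1 locus window was tested, so the 0 there says little about the loci.

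The labels give replicate numbers but do not say that they pair libraries. With the replicate block, the block differences for RAD21 were 0.215 and 0.161 points, for NIPBL 0.212 and 0.0449, and for Ig2b 0.390 and 0.396, as without it. Both groups of each contrast held the same replicate numbers, so these differences could not change. They are still counted above among the values that kept their direction. No locus window was called, and 1 window of the genome was called for RAD21 block. Same-numbered libraries deviated together with a correlation of 0.794 for RAD21 dCas9, 0.206 for NIPBL, and 0.0473, 0.145 and 0.215 for Ig2b, where each library correlated best with its own number. For Ig2b number 1 this was near a tie, as 1 library of that number had a correlation of 0.0399 with number 2 of the other group. The number of libraries limits every contrast between groups: the exact tests of 2 against 2 and 3 against 3 cannot pass 0.05.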
